A study of Mus musculus with 13 samples.

Results

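The comparison described here asked how transcripts of male heart muscle nuclei differ between mice given an adeno-associated virus that carried the human progesterone receptor and mice given the same kind of virus without an insert. It rests on 6 of the 13 libraries of the series, taken by their labelled vector and sex: 3 libraries from males with the receptor vector (PGR_M) and 3 from males with the empty vector (Con_M). Of the 55536 genes in the broader deposited table, 16125 passed a filter on low counts and were tested. Both groups were C57BL/6J mice, an inbred laboratory strain, with no other allele named. Both received serotype 6 virus once, into the peritoneal cavity, on postnatal day 1, and both were collected on postnatal day 56, so each group carries viral exposure and no group without virus was analysed here. The promoter that drives the insert, the dose and the amount of receptor made are not given in the sources used here. A library pools the ventricles of several mice, and p-values measure the spread between such pools. The other 7 libraries, from females (4 Con_F and 3 PGR_F), entered the same fit and give the same vector contrast in animals that share no library with the male one.

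The progesterone receptor is a nuclear receptor that binds progesterone, moves onto palindromic DNA elements shared with the glucocorticoid, mineralocorticoid and androgen receptors, and recruits coactivators or corepressors. Nuclei were sorted on Pcm1, a centriolar satellite protein that lies around the nucleus of cardiomyocytes, so the RNA measured is nuclear and mostly that of heart muscle cells. Interferons act through receptors, JAK kinases, STAT proteins and interferon regulatory factors (IRF) on a large set of genes for viral RNA sensing, cell-autonomous defence and presentation of peptides on class I histocompatibility (MHC) molecules, a set that most cells of the body can turn on.

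Libraries held 33.3 to 86.3 M counts in Con_M and 45.3 to 57.9 M in PGR_M, with Con_M 1 the deepest. Levels below are CPM, counts per M counts of the library after TMM scaling, and a gene's value covers its exons and introns together. Pcm1 was at 121, 129 and 125 CPM in Con_M 1 to 3 and at 114, 124 and 131 in PGR_M 1 to 3. The X-inactivation RNA Xist did not exceed 1.05 CPM in any of the 6, and the Y-linked gene Uty stood between 232 and 281 CPM. The human insert was not measured, and mouse Pgr, under the filter, had 0, 0 and 1 counts in Con_M and 8, 0 and 3 in PGR_M. All 14 cardiomyocyte markers were tested (median log2 fold change -0.06, 4 above 0), with a median of -0.02 without Con_M 3, -0.03 without PGR_M 1, -0.02 without PGR_M 2 and -0.10 without PGR_M 3, and their summed level was 99775 to 110386 CPM in Con_M and 98751 to 114784 in PGR_M.

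Con_M 3 stood apart in a small set of genes. It held 17 genes at 10 CPM or more that were at least 2 times the highest of the other 5 libraries, against 0 to 3 such genes in each of the others, and they took 4.23% of its scaled counts. They included n-R5-8s1, a 5.8S ribosomal RNA gene, Gm42418, a locus with ribosomal RNA sequence, and Lars2, which encodes a mitochondrial leucyl-tRNA synthetase. Lars2 had 58.2, 62.0 and 2573 CPM in Con_M and 56.3, 73.5 and 73.5 in PGR_M. Its log2 fold change, PGR_M over Con_M, was -3.73 with all libraries and 0.18 without Con_M 3. Gm42418 took 2.75% of the counts of Con_M 3 and 0.405% to 0.775% of those of the other 5. The share of all ribosomal-RNA-like genes did not set Con_M 3 apart, at 5.94% against 6.05% in PGR_M 1 and 3.07% to 4.20% in the other 4. Over 11096 genes, the median absolute log2 difference of a library from the rest of its group was 0.124 for Con_M 3, and 0.0828 to 0.127 for the other 5.

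The counts of called and of lower-p genes over all genes, the list medians and the range of the 24 genes described first are therefore also given without that library, and other genes are where leaving it out changed their sign. Of the 16125 genes tested in both fits, 14335 (88.9%) kept the sign of their log2 fold change when Con_M 3 was left out, and 34 moved by over 1 on the log2 scale. The 17 genes high in Con_M 3 had log2 fold changes from -7.75 (Gm48099) to -0.47 (Cd44) with it, and Cdk8 and Cmss1 moved from -2.11 and -2.03 to 0.05 and 0.26 without it. These genes are not read below.

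**Figure D1:**
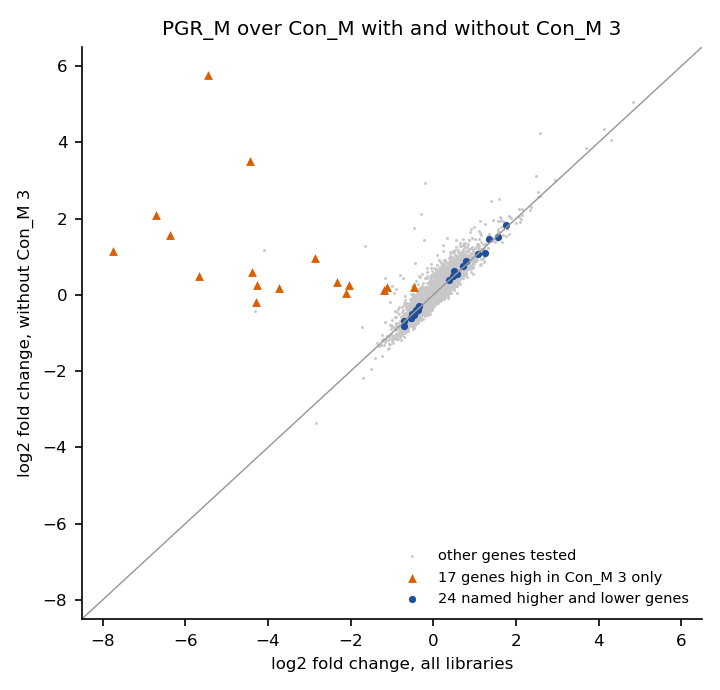
Log2 fold change of each tested gene, PGR_M over Con_M, with all libraries (horizontal axis) and without Con_M 3 (vertical axis), with the line of equality. The 24 named higher and lower genes lie along the line, and the 17 genes high in Con_M 3 lie above it, at -7.75 to -0.47 on the horizontal axis.

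No single gene passed. The quasi-likelihood test of edgeR, fitted to all 13 libraries, called 0 of 16125 genes (0%) at an adjusted p under 0.05, and 0 of 16496 (0%) without Con_M 3. Those with an unadjusted p below 0.05 numbered 1206 (7.48%), of which 570 were higher in PGR_M (3.53%) and 636 lower (3.94%). Without Con_M 3 there were 1343 (8.14%), 647 higher (3.92%) and 696 lower (4.22%), and 836 of the 1206 were among them. The total was 682 without Con_M 2 and 652 without PGR_M 2. With upper-quartile scaling, 695 genes were higher and 518 lower. DESeq2 called 27 of 18025 genes (0.15%), 22 higher and 5 lower, and limma-voom called 0, with 1239 at an unadjusted p under 0.05. On simulated counts with known changes, DESeq2 made 24 false calls in this contrast and edgeR 8. All 3 PGR_M libraries lay above all 3 Con_M libraries in 1161 genes (7.2%) and below them in 1367 (8.48%). Set against Con_M 1 and 2 alone, they lay above in 2314 (14.4%) and below in 2667 (16.5%).

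The split between higher and lower genes differed with abundance. Among the 8008 genes with a mean log2 CPM over 3, 204 were higher and 456 lower at an unadjusted p under 0.05. Among the 4454 genes between 0 and 3 the counts were 211 and 111, and among the 3663 below 0 they were 155 and 69. The median standard error (SE) of a log2 fold change was 0.11, 0.19 and 0.37 in the same order. The most abundant class was thus mostly lower at that level, and both rarer classes were mostly higher, with less precise values.

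Among named genes with a mean log2 CPM of at least 1, leaving out ribosomal-RNA-like, mitochondrial and predicted ones, the 12 lower in PGR_M with the smallest p had log2 fold changes from -0.71 to -0.34, and the 12 higher ones 0.37 to 1.75. Without Con_M 3 these ranges were -0.83 to -0.28 and 0.39 to 1.84. They were chosen by their p in this contrast, so their values describe it and test nothing further. Pmepa1 (ENSMUSG00000038400, GRCm38 chr2:173224458-173276533, minus strand), whose membrane-bound product limits TGF-beta signalling, had the smallest p of all genes. It was at 41.9, 42.8 and 42.9 CPM in Con_M and 30.3, 29.7 and 29.5 in PGR_M. The 3 libraries of each group lay close together and the groups far apart, or -0.51 on the log2 scale (SE 0.07, adjusted p = 0.0525 by edgeR) and -0.50 without Con_M 3. Of the TGF-beta and BMP pathway as a whole, 16 of 37 tested members were above 0 and 21 below, with a median of -0.03 (-0.02 without Con_M 3, 0.01 without Con_M 1, -0.05 without Con_M 2, -0.01 without PGR_M 1 and -0.02 without PGR_M 3). The type I BMP receptor Bmpr1a was at -0.24 (unadjusted p = 0.0311) and the transducer Smad2 at -0.19, and both had all PGR_M libraries below all Con_M libraries. The corepressor Skil was at -0.18 and Smad9 at 0.25.

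Of the other lower genes, Higd1a, a hypoxia-inducible protein of the mitochondrial inner membrane, was at 19.3, 21.3 and 19.4 CPM in Con_M and 15.8, 13.3 and 13.3 in PGR_M. P4ha1, the catalytic subunit of the collagen prolyl hydroxylase, was at 60.7, 45.4 and 39.9 against 27.4, 29.1 and 33.0, and varied more within Con_M than within PGR_M. Pgk1, phosphoglycerate kinase of glycolysis, was at 23.997, 24.7 and 20.2 against 16.7, 14.8 and 16.3. Ndufaf4 helps to assemble respiratory complex I, and Ciapin1 acts in cytosolic iron-sulfur cluster assembly; their log2 fold changes were -0.36 and -0.44. Srl, the calcium-binding protein sarcalumenin of the sarcoplasmic reticulum, was at 402, 448 and 378 against 282, 270 and 335. Tnnt1, the slow skeletal troponin T, was at -0.70 (SE 0.17), the actin regulator Vasp at -0.42 (SE 0.09) and the endosomal adaptor Micall1 at -0.54 (SE 0.13). Ube2g1, a ubiquitin-conjugating enzyme, and Pdia3, a disulfide isomerase of the endoplasmic reticulum that serves in the class I peptide-loading complex, closed the group at -0.38 and -0.34.

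Of the 12 higher genes, H2-D1, Ifih1, Uba7 and Zc3hav1 act in antigen presentation or antiviral defence. Gng2 (GRCm38 chr14:19872559-19977627, minus strand), a gamma subunit of heterotrimeric G proteins, was at 1.65, 1.31 and 0.965 CPM in Con_M and at 3.13, 3.18 and 3.39 in PGR_M. The 3 PGR_M values lay close together and above every control, or 1.26 on the log2 scale (SE 0.24, adjusted p = 0.348 by edgeR) and 1.11 without Con_M 3. Slc38a1, a glutamine transporter, was at 12.5, 14.3 and 16.2 against 18.9, 21.7 and 20.6. Atg14, a subunit of the autophagy lipid kinase complex, was at 15.7, 14.2 and 15.3 against 19.2, 19.3 and 20.1. In both genes the groups were separate by a few CPM, with log2 fold changes of 0.51 and 0.37. Lgals3bp, a secreted glycoprotein that binds galectins, was at 0.73 (SE 0.15), Plscr2, of the phospholipid scramblase family, at 0.47 (SE 0.11) and Klhl38, of the Kelch-like family, at 0.52 (SE 0.12).

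Tmem140 and Thsd7a spread widely within PGR_M. The membrane protein gene Tmem140 was at 3.10, 2.65 and 3.52 CPM in Con_M and at 6.06, 10.8 and 14.3 in PGR_M, and Thsd7a, a thrombospondin-type transmembrane protein, at 17.2, 14.3 and 13.6 against 65.8, 22.5 and 45.1. The highest library of the first was PGR_M 3 and of the second PGR_M 1. Nkain2, a membrane protein that interacts with the sodium pump, had the order of Thsd7a, with 28.7, 23.1 and 20.0 against 76.8, 32.2 and 59.0. Without PGR_M 2 edgeR called Thsd7a, Nkain2 and Cyp2b10, a cytochrome P450, and no other gene.

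**Figure D2:**
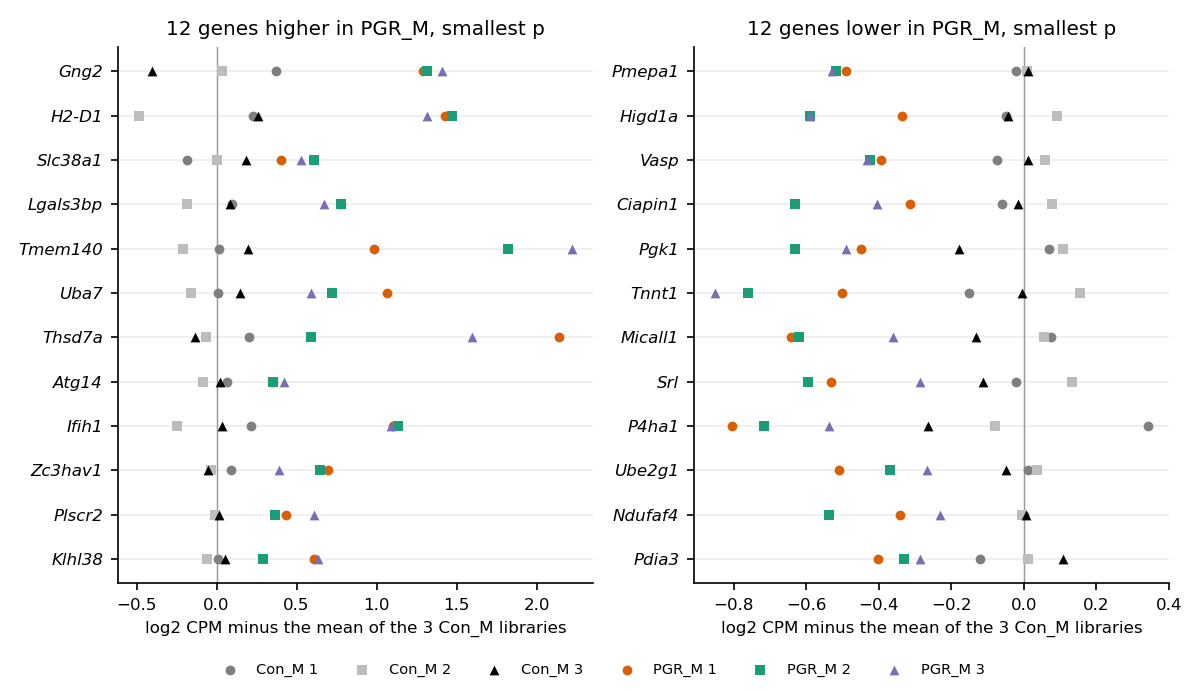
Log2 CPM of the 12 higher and the 12 lower genes with the smallest p in each of the 6 male libraries, as the difference from the mean of the 3 Con_M libraries (horizontal axis). In all 24 genes the coloured PGR_M points lie on 1 side of the grey and black Con_M points, from the tight Pmepa1 (29.5 to 30.3 CPM in PGR_M) to the wide Thsd7a (22.5 to 65.8 CPM).

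Genes of the interferon response were described in 4 lists, none of which holds a gene called by edgeR. Class I MHC and antigen processing, interferon-inducible GTPases, and nucleic acid sensors with antiviral effectors were the 3 lists with the highest medians among 31 lists. Without Con_M 1 the macrophage and endothelial marker lists (0.59 and 0.53) stood above the sensors (0.45), and without PGR_M 1 they did so with the lymphocyte markers (0.58, 0.49 and 0.46 against 0.44). Without Con_M 2 the lymphocyte markers (0.53) stood above the sensors (0.34). A list is described here by counts and its median, beside those of all tested genes, of which 8083 (50.1%) were above 0 and 8042 (49.9%) below, with a median of 0.00. All PGR_M libraries lay above all Con_M libraries in 7.2% of all tested genes and below them in 8.48%. At an unadjusted p under 0.05 by edgeR, 3.53% were higher and 3.94% lower. Each list count below is to be read beside these shares. They cover genes of all levels, though the split between higher and lower genes differed with abundance, as given above. The tested GTPases averaged -0.82 to 1.04 log2 CPM by library, and the nuclear-encoded respiratory chain genes 5.03 to 5.20. No share was computed at the level of a single list.

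Sensors stand at the start of the response. Of 40 listed sensors and effectors 37 were tested, 34 of them above 0, with a median log2 fold change of 0.41 (0.51 without Con_M 3). In 21 members all PGR_M libraries lay above all Con_M libraries and in 1 below, and 21 were higher at an unadjusted p under 0.05. Over all genes these shares were 7.2%, 8.48% and 3.53%. Ifih1, a cytoplasmic sensor of long double-stranded RNA, was at 1.77, 1.28 and 1.56 CPM in Con_M and 3.26, 3.33 and 3.24 in PGR_M, which is 1.07 on the log2 scale (SE 0.25, adjusted p = 0.438 by edgeR). Ddx58, the sensor RIG-I, was at 2.55, 2.14 and 2.30 against 4.53, 3.94 and 3.47. The groups did not overlap in either gene. Mavs, the adaptor on which both sensors converge, was at -0.08 and the DNA sensor Cgas at -0.20. Among effectors, the translation inhibitor Ifit1 was at 1.49 (SE 0.38), Ifit3 at 1.83 (SE 0.50), the nucleotide kinase Cmpk2 at 1.06 (SE 0.28) and Zc3hav1, an antiviral protein that binds viral RNA, at 0.58 (SE 0.14). Uba7, which activates the ubiquitin-like protein Isg15, was at 5.99, 5.33 and 6.57 CPM against 12.4, 9.79 and 8.95, while Isg15 itself lay under the filter.

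Signal transducers were less uniform. Of 22 tested receptors, JAK, STAT and IRF factors 14 were above 0 and 8 below, with a median of 0.12 (0.14 without Con_M 3), and 8 had all PGR_M libraries above all Con_M libraries. The receptor chains Ifnar1, Ifnar2, Ifngr1 and Ifngr2 lay between -0.02 and 0.14 (0.00 to 0.16 without Con_M 3) and the kinases Jak1, Jak2 and Tyk2 between 0.04 and 0.19 (-0.07 to 0.18 without Con_M 3). None of these 7 had an unadjusted p under 0.05. The members with larger differences are themselves inducible. Irf1 was at 1.14, 1.37 and 1.25 CPM against 3.16, 2.86 and 2.69, which is 1.23 on the log2 scale (SE 0.24, adjusted p = 0.348 by edgeR). Irf7 was at 1.32 (SE 0.32), Stat2 at 0.41 and the feedback inhibitor Socs1 at 1.68 (SE 0.54). Usp18, which removes Isg15 from proteins and dampens type I receptor signalling, was at 1.11, 1.25 and 1.40 CPM against 2.57, 2.09 and 2.16, with the groups apart. Irf3, Irf2 and Irf9 were at -0.02, -0.01 and -0.17, and at 0.07, 0.02 and -0.19 without Con_M 3.

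The interferon-inducible GTPases, which attack the membranes around intracellular microbes or act on viral particles, had the highest median. Of 20 listed, 13 were tested and all 13 were above 0, with a median of 1.34 (1.43 without Con_M 3), and in 8 the groups did not overlap. Of the 7 not tested, Gbp9, Gbp10 and Ifi47 are nested in a longer gene of their own strand, where no gene was given any count, so their 0 measures nothing. Gbp2 was at 0.326, 0.313 and 0.156 CPM in Con_M and 1.55, 0.796 and 1.23 in PGR_M, a log2 fold change of 2.10 (SE 0.46). Irgm2 was at 2.39, 2.45 and 3.70 against 12.5, 6.86 and 10.7, and Gbp3 at 0.291, 0.256 and 0.187 against 0.933, 0.538 and 0.760. PGR_M 1 was the highest and PGR_M 2 the lowest PGR_M library in each of these 3. Tgtp2, a rare transcript in controls, had 10, 3 and 1 counts in Con_M and 152, 35 and 97 in PGR_M. Iigp1, Gbp5, Gbp8 and Gvin1 had log2 fold changes from 0.21 to 1.24. A count table does not show how reads shared by near-identical family members were split, so the value of a single member is less certain than that of the family.

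At the end of the pathway stand the class I molecules. All 23 listed members were tested, 19 above 0 and 4 below, with a median of 1.16 (1.38 without Con_M 3), and in 15 all PGR_M libraries lay above all Con_M libraries. The members differed by role. Among heavy chains, H2-D1 was at 2.56, 1.57 and 2.61 CPM against 5.89, 6.07 and 5.44, which is 1.35 on the log2 scale (SE 0.26, adjusted p = 0.348 by edgeR). B2m, the light chain, was at 2.35, 2.08 and 2.58 against 8.20, 6.26 and 6.57. Nlrc5, the transactivator of class I genes, was at 2.70, 2.93 and 3.80 against 27.5, 10.2 and 16.5, the widest PGR_M spread of these. The groups were apart in all 3, and the log2 fold changes of B2m and Nlrc5 were 1.59 (SE 0.39) and 2.54 (SE 0.63). H2-K1, H2-Q7 and H2-T22 were at 1.64, 2.07 and 1.58, with the same caution on reads shared by near-identical genes. The peptide transporter subunit Tap1 was at 1.88 (SE 0.45) and its partner Tap2 at 0.43, and the immunoproteasome subunits Psmb8, Psmb9 and Psmb10 at 2.48, 2.13 and 0.38. The chaperones of the loading complex were near or below 0, with Calr at -0.03 (0.09 without Con_M 3), Canx at -0.23, Pdia3 at -0.34 and Tapbp at 0.05. B2m was the gene that edgeR called when the 6 male libraries were fitted alone (adjusted p = 0.0427).

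Promoters of these genes were read for the sequences that the factors above are known to bind. They come from RefSeq (GRCm38.p6) and span 250 bases before to 50 after the annotated start. The core of the interferon-stimulated response element (ISRE), 2 copies of GAAA with 2 bases of any kind between them, on either strand, is bound by IRF factors and STAT-IRF complexes, and the gamma-activated sequence (GAS), TTCNNNGAA, by STAT dimers. The ISRE core occurred in 1131 of 32851 promoters (3.44%) and the GAS in 2726 (8.3%). Of 27025 genes with a promoter, 3.99% held the ISRE core and 9.55% the GAS. The core was present in all 7 GTPase genes with a promoter in the table, in 9 of 28 sensors and effectors (32.1%), in 5 of 20 class I genes (25%) and in 3 of 20 transducers (15%). It was present in 2 of 9 of the higher genes with the smallest p, Tmem140 and Ifih1, and in 0 of 10 of the lower ones. The GAS occurred in 4 of the 7 GTPase genes (57.1%), 7 of 28 sensors and effectors (25%), 4 of 20 transducers (20%), 2 of 20 class I genes (10%), 0 of 9 of the higher genes and 0 of 10 of the lower ones. The steroid response element, GNACA and TGTNC with 3 bases of any kind between them, was in 156 of 32851 promoters (0.475%) and in 0 of the promoters of the sets just named. A motif held by 0.537% of all genes with a promoter is likely to be missing from sets of 7 to 28 genes. That 0 therefore says nothing about these genes. The 4 lists were drawn up as genes of the interferon response, so their ISRE core shares describe the lists and test nothing further. A match gives letters in a window and says nothing of binding. The 250 bases before the start of 5 genes are printed, 5′ to 3′ on the gene's strand, because they place the motif beside the gene's values; capitals mark the ISRE core or GAS. The genes are Gbp2 (chr3:142620413-142620662, plus strand, ISRE core at -59 on the other strand), Irgm2 (chr11:58214727-58214976, plus strand, GAS at -75 and ISRE core at -64), B2m (chr2:122147437-122147686, plus strand, ISRE core at -139), Irf1 (chr11:53769764-53770013, plus strand, GAS at -90; a second listed promoter of this gene, chr11:53770223-53770472, holds neither motif in that window) and Tmem140 (chr6:34862896-34863145, plus strand, ISRE core at -63).
Gbp2: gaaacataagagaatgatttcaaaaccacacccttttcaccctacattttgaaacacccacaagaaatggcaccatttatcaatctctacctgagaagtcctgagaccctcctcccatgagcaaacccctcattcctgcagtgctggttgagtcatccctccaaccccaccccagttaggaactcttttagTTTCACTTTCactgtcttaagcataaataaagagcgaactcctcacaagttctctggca
Irgm2: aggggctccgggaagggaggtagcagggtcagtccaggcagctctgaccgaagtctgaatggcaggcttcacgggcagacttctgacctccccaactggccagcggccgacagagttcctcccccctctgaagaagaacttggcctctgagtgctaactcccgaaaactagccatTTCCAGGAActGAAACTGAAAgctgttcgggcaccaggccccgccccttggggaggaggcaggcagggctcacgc
B2m: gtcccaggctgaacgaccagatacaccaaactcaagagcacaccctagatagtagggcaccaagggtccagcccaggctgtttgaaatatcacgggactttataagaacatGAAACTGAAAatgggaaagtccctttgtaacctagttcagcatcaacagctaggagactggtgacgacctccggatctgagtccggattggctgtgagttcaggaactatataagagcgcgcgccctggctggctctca
Irf1: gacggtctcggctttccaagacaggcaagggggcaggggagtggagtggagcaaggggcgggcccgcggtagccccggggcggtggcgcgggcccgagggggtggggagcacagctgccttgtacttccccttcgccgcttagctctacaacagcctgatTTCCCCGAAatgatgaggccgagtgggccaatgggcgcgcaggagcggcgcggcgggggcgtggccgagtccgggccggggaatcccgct
Tmem140: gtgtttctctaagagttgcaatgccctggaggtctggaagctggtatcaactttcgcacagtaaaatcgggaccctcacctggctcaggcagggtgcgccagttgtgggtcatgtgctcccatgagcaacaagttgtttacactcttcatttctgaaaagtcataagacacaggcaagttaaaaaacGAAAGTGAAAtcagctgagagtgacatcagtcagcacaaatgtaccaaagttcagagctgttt

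Among the PGR_M libraries, PGR_M 1 was often the highest for interferon genes. PGR_M 2 was the lowest in 9 of 13 GTPases, against 4391 of all 16125 genes. In class I genes PGR_M 2 and PGR_M 3 were each the lowest in 10 of 23. PGR_M 1 was the highest of the 3 in 15 of 23 class I genes, 11 of 13 GTPases, 11 of 22 transducers and 21 of 37 sensors and effectors, against 5875 of all 16125 genes. H2-D1 and Ifih1 were highest in PGR_M 2. In Con_M, Con_M 3 was the highest in 17 of 23 class I genes and 21 of 37 sensors, and both medians were higher without it, while Con_M 1 was the highest in 7 of the 13 GTPases and Con_M 3 in 6. Immune cell markers had another order. Of 20 macrophage markers 17 were tested, 13 above 0, with a median of 0.33, and PGR_M 1 was the lowest PGR_M library in 15 of the 17. Their summed level was 27.6 to 37.5 CPM in Con_M, 28.4 in PGR_M 1, and 44.1 and 40.3 in PGR_M 2 and 3. Their median was 0.30 without Con_M 3, 0.16 without Con_M 2 or without PGR_M 2, 0.59 without Con_M 1 and 0.58 without PGR_M 1. Ptprc, the leukocyte antigen CD45, was at 1.37, 0.912 and 1.53 CPM against 1.74, 2.80 and 2.65, while Fcer1g, an Fc receptor chain, was at 5.99, 6.75 and 6.41 against 5.79, 4.47 and 4.25. Of 15 lymphocyte markers 3 were tested; Cd3e had 0, 0 and 0 counts in Con_M and 2, 3 and 0 in PGR_M. The tested 3 summed to 8.08 to 8.72 CPM in Con_M and 7.41 to 9.36 in PGR_M, with a median of 0.26 (0.34 without Con_M 3, -0.11 without Con_M 1, 0.53 without Con_M 2, 0.46 without PGR_M 1 and 0.14 without PGR_M 2). In such pools, more nuclei of a type and more RNA per nucleus cannot be told apart, and the part of these cells in the interferon values was not tested beyond these levels.

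**Figure D3:**
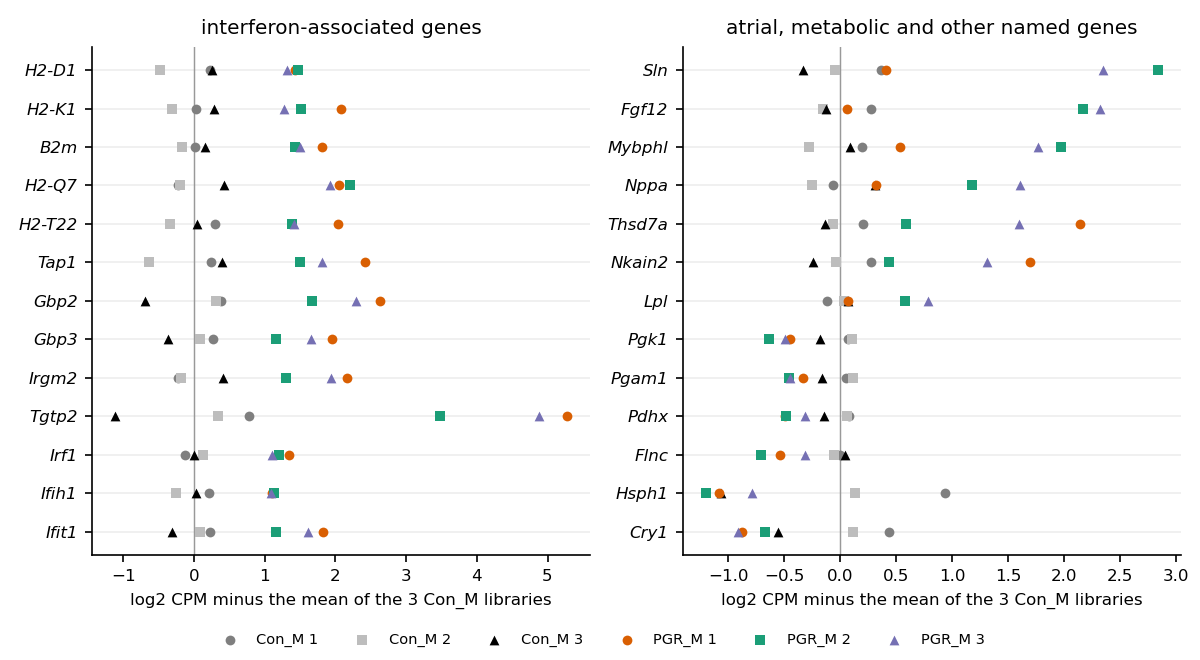
Log2 CPM of 13 interferon-associated genes (left) and 13 atrial, metabolic and other genes (right) in the 6 male libraries, as the difference from the mean of the 3 Con_M libraries (horizontal axis). On the left PGR_M 1 is often the rightmost point, as for Gbp2 (1.55 CPM), and on the right Sln, Fgf12, Mybphl and Nppa are high in PGR_M 2 and 3 and near the controls in PGR_M 1.

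NF-kappaB and inflammatory genes, which respond to cytokines rather than to interferon alone, differed less. Of 19 tested, 16 were above 0, with a median of 0.27 (0.29 without Con_M 3, 0.15 without PGR_M 2 and 0.17 without Con_M 2), and in 3 the groups did not overlap. The apoptosis inhibitor Birc3 was at 6.93, 6.30 and 6.82 CPM against 8.43, 8.17 and 8.75, and the kinase Ripk1 at 17.1, 18.7 and 18.3 against 20.9, 20.8 and 23.3. The cytokines Il1b, Il6, Tnf, Ccl2, Cxcl1, Cxcl9 and Cxcl10 all lay under the filter.

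Of 39 listed genes known to respond to progesterone or glucocorticoid receptors in other tissues, 30 were tested, 21 above 0 and 9 below, with a median of 0.16 (0.12 without Con_M 3 and 0.09 without PGR_M 2 or Con_M 2 and 0.10 without PGR_M 1). In the list 4 lay wholly above and 2 wholly below the controls, where 7.2% and 8.48% of all genes did. Ccnd1, cyclin D1, was at 1.79, 1.48 and 1.99 CPM against 2.31, 2.43 and 2.30, which is 0.42 on the log2 scale (SE 0.16, adjusted p = 0.611 by edgeR). Cish, a STAT5 target that inhibits cytokine signalling, was at 46.3, 41.9 and 31.1 against 46.9, 58.5 and 63.5. In both, each PGR_M library exceeded each control, though the lowest PGR_M value of Cish was within 1 CPM of the highest control. The widely used hormone-induced genes Fkbp5, Per1, Zbtb16 and Tsc22d3 were at 0.36 (-0.03 without Con_M 3), -0.70, -0.89 and -0.21, each with an unadjusted p of 0.0936 or more. The list as a whole ran from -0.89 to 1.45. Its member Mt2 was at 1.06 (SE 0.59), with 0.268, 0.741 and 0.716 CPM against 1.97, 0.731 and 0.575. Fkbp4, the cochaperone of the progesterone receptor complex, was at 35.7, 30.9 and 31.2 against 29.9, 28.3 and 23.6 CPM (log2 fold change -0.26, unadjusted p = 0.0445).

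Receptors and cofactors themselves differed little. Of 22 tested, 9 were above 0 and 13 below, with a median of -0.06 (-0.06 without Con_M 3, -0.01 without Con_M 1 and -0.04 without PGR_M 1), and in 0 all PGR_M libraries lay above the controls. The glucocorticoid receptor Nr3c1 was at 215, 238 and 234 CPM against 181, 210 and 221, with overlapping groups. The receptor cochaperones Ptges3 and Hsp90aa1 were at -0.33 and -0.27, and the coactivators Ncoa1, Ncoa2 and Ncoa3 between -0.01 and 0.07.

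Genes of energy metabolism had small differences of mostly the same sign within a list. Of the nuclear-encoded respiratory chain 44 members were tested, 39 below 0 and 5 above, with a median of -0.12 (-0.15 without Con_M 3), and 14 lay wholly below the controls and 1 wholly above. Over all genes 8.48% lay wholly below and 7.2% wholly above. Among all tested genes with a mean log2 CPM over 3, 456 were lower and 204 higher at an unadjusted p under 0.05 by edgeR. Ndufb5, a subunit of complex I, was at 85.5, 82.8 and 74.0 CPM against 67.9, 64.3 and 70.6. Cytochrome c, Cycs, was at 16.2, 17.9 and 15.9 against 13.8, 12.4 and 14.3, and Atp5g1, of the ATP synthase, at 37.6, 39.1 and 41.7 against 34.4, 32.3 and 32.0. All 3 genes had separate groups with gaps of a few CPM, and their log2 fold changes were -0.26, -0.30 and -0.26. PGR_M 3 was the highest PGR_M library in 29 of the 44. Of the 13 mitochondrially encoded transcripts 10 were tested, 9 above 0, with a median of 0.18 and no gene with separate groups. PGR_M 3 was the highest PGR_M library in all 10, and without it the median was -0.22. The median was 0.08, with 7 of 10 above 0, without Con_M 3, and 0.33, 0.37 and 0.30 without Con_M 1, PGR_M 1 and PGR_M 2.

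Pyruvate entry and the citric acid cycle had a similar split, with 24 of 30 members below 0, a median of -0.09 (-0.13 without Con_M 3, -0.06 without Con_M 1 and -0.15 without PGR_M 3) and 7 members wholly below the controls. Pdhx, the binding protein that holds the dehydrogenase subunit in the pyruvate dehydrogenase complex, was at 70.1, 69.3 and 60.1 CPM against 47.3, 47.6 and 53.4. Mpc2, of the mitochondrial pyruvate carrier, was at 59.2, 59.3 and 54.1 against 46.3, 44.1 and 48.7. The groups were apart by over 5 CPM in both, with log2 fold changes of -0.43 (SE 0.13) and -0.31 (SE 0.09). In glycolysis 19 of 29 were below 0 and 10 above, with a median of -0.10 (-0.09 without Con_M 3), and 7 lay wholly below the controls. Besides Pgk1, the mutase Pgam1 was at -0.41 and the isomerase Gpi1 at -0.40, and Pfkl and Gys1, of phosphofructokinase and glycogen synthase, at -0.32 and -0.23.

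Fatty acid uptake and oxidation genes were mostly above 0, more so without Con_M 3. Of 40 tested members 34 were above 0, with a median of 0.20 that was 0.34 without Con_M 3, 0.11 without Con_M 1 and 0.08 without PGR_M 1. Con_M 3 was the highest Con_M library in 36 of the 40, and 4 members lay wholly above all 3 controls, against 25 wholly above Con_M 1 and 2. Over all genes 7.2% lay wholly above all 3 controls and 14.4% wholly above Con_M 1 and 2. Pnpla2, the adipose triglyceride lipase, was at 20.7, 19.2 and 26.8 CPM against 34.0, 28.6 and 33.2. Ehhadh, of peroxisomal oxidation, was at 24.7, 25.0 and 32.7 against 44.8, 34.5 and 36.8. In both, Con_M 3 was the control nearest to the PGR_M values. Lipoprotein lipase, Lpl, was at 480, 533 and 547 against 547, 777 and 894, so that PGR_M 1 stood at the level of Con_M 3. The nuclear receptors of the pathway were below 0, with Ppara at -0.25, Ppard at -0.22 and Esrrb at -0.32.

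Of 30 sarcomere and structural genes tested 20 were below 0, with a median of -0.10 (-0.07 without Con_M 3, -0.04 without PGR_M 2 and -0.18 without PGR_M 1), and 7 lay wholly below the controls. Flnc, filamin C of the Z disc, was at 263, 253 and 270 CPM against 181, 161 and 211. Tnnc1, troponin C, was at 83.1, 82.0 and 97.5 against 64.8, 54.4 and 68.5, and Acta1, skeletal actin, at 7.55, 7.44 and 5.76 against 3.40, 3.79 and 4.82. The groups were separate in all 3, with log2 fold changes of -0.51, -0.48 and -0.79. The muscle creatine kinase Ckm was at 148, 135 and 104 against 87.9, 90.8 and 86.5. Titin, Ttn, and the alpha myosin heavy chain Myh6 were at 0.06 and -0.11.

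Calcium handling and ion channel genes were spread around 0, with 26 of 45 above it and a median of 0.03 (0.04 without Con_M 3 or PGR_M 1, 0.00 without Con_M 1 and 0.01 without PGR_M 2 or PGR_M 3). Jph2, which tethers the sarcoplasmic reticulum to the plasma membrane, was at 938, 889 and 723 CPM against 599, 569 and 646, with all PGR_M libraries below, and the atrial potassium channel subunit Kcnj5 was at -0.29. The calcium release channel Ryr2 and the pump Atp2a2 were at 0.06 and 0.00 (Atp2a2 at -0.03 without Con_M 3). In the beta-adrenergic, G protein and cAMP pathway 20 of 40 were above 0 and 20 below, with a median of 0.01 (-0.03 without Con_M 3 or without PGR_M 2, -0.01 without PGR_M 3, and 0.03 to 0.04 without Con_M 1, Con_M 2 or PGR_M 1), 4 members wholly above and 4 wholly below. Both counts were near the shares over all genes, 7.2% above and 8.48% below. Beside Gng2, the G protein beta subunit Gnb1 was at -0.30 (SE 0.09), the adenylyl cyclase Adcy6 at -0.28, and the regulators Rgs2 and Arrb1 at 0.52 and 0.35. The receptor Adrb1 was at -0.02.

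Atrial and conduction genes showed a pattern of single libraries. Of 20 tested 13 were above 0, with a median of 0.29 (0.40 without Con_M 3), and 5 lay wholly above the controls. Fgf12, an intracellular growth factor that modulates sodium channels, was at 24.4, 18.2 and 18.4 CPM in Con_M and 21.0, 90.7 and 100 in PGR_M. Sln, sarcolipin, a regulator of the calcium pump in the atrium, was at 0.151, 0.114 and 0.0934 against 0.155, 0.839 and 0.595, and Mybphl, a myosin-binding protein, at 1.11, 0.798 and 1.03 against 1.40, 3.81 and 3.31. PGR_M 2 and 3 were high and PGR_M 1 near the controls in each. Nppa, the atrial natriuretic peptide, was at 2.47, 2.17 and 3.21 against 3.23, 5.83 and 7.84, and Bmp10, an atrial growth factor, had 0, 7 and 19 counts against 7, 51 and 122. Other atrial genes had lower values, with Myl7 at -0.14 (0.59 without Con_M 3) and Kcnj3 at -0.06. Whether atrial tissue was present in the pools was not tested beyond these levels. Fetal and stress-associated genes had 9 of 18 above 0 and 9 below, with a median of 0.08 that was 0.35 without Con_M 3 or without PGR_M 1, -0.04 without Con_M 1, 0.03 without Con_M 2, 0.02 without PGR_M 2, -0.12 without PGR_M 3 and -0.05 when the 6 male libraries were fitted alone.

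Amino acid transporters, among them Slc38a1, were above 0 in 18 of 25, with a median of 0.10 (0.12 without Con_M 3), and 7 lay wholly above the controls and 0 below. Slc36a1, of the lysosome, was at 13.7, 15.6 and 15.4 CPM against 19.1, 19.0 and 17.1, and Slc7a8 and Slc7a5, of the large neutral amino acid transporters, were at 0.36 and 0.39. Heat shock and unfolded protein genes were below 0 in 21 of 30, with a median of -0.07 (-0.14 without Con_M 3, -0.03 without PGR_M 1 and -0.12 without PGR_M 2). Hsph1, a heat shock protein of the Hsp110 family, was at 25.4, 14.6 and 6.35 CPM in Con_M and 6.30, 5.79 and 7.72 in PGR_M, so that the difference lay in Con_M 1 and 2. Cell cycle and p53 genes were above 0 in 25 of 36 (median 0.07, 0.14 without Con_M 3), with Mdm2 at -0.20 and Ccnb2 at -0.63. Immediate early and circadian genes had 14 of 30 above 0, with a median of -0.03 (-0.14 without Con_M 3, 0.11 without Con_M 1, -0.07 without Con_M 2, 0.01 without PGR_M 1 and -0.06 without PGR_M 2). Cry1, a repressor of the clock, was at 11.04, 8.86 and 5.57 CPM against 4.46, 5.12 and 4.33, and Con_M 1 was the highest control in 23 of the 30. Cytosolic ribosomal protein genes were below 0 in 31 of 43 (median -0.06, -0.02 without Con_M 3 and -0.03 without PGR_M 1), and 0 of them had an unadjusted p under 0.05.

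**Figure D4:**
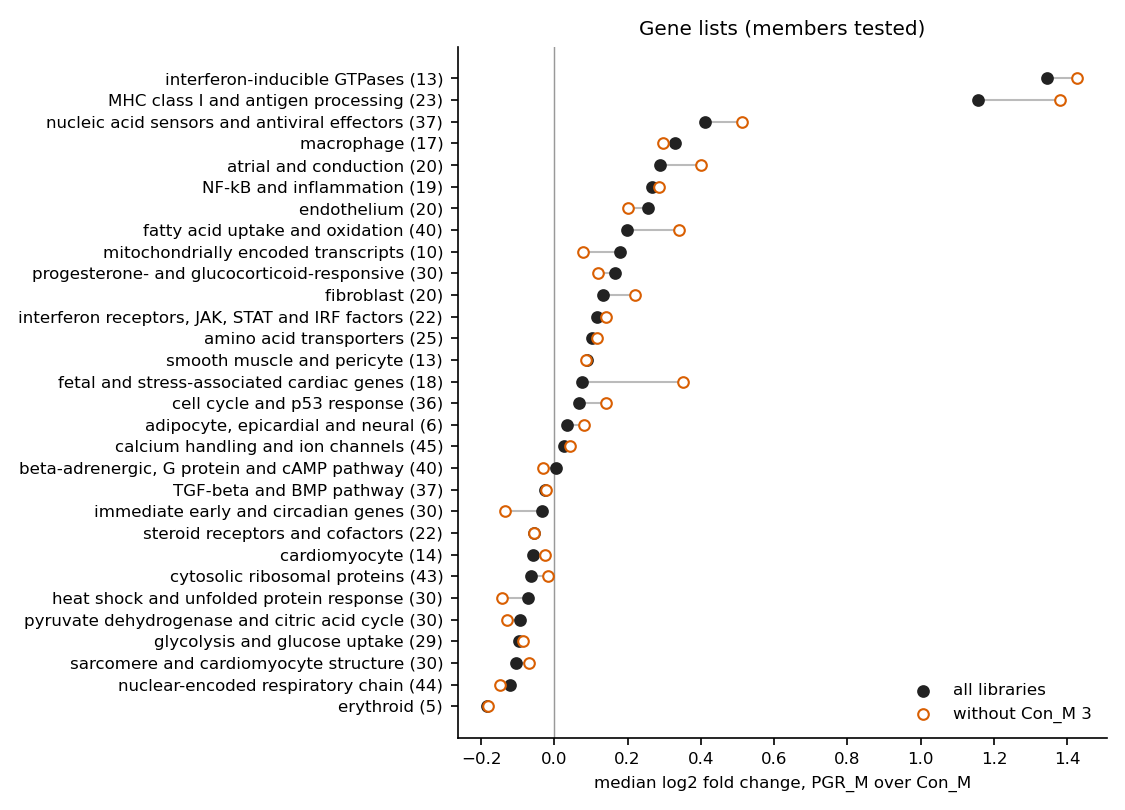
Median log2 fold change, PGR_M over Con_M, of 30 gene lists with at least 5 tested members (number in brackets), with all libraries (filled) and without Con_M 3 (open). Interferon-inducible GTPases (1.34) and class I MHC genes (1.16) stand to the right of all other lists, and 11 lists lie to the left of 0 with all libraries.

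Markers of other cells in the ventricle varied by library. Of 20 endothelial markers 19 were above 0, with a median of 0.25 (0.20 without Con_M 3), but 0 had separate groups. Their summed level was 100, 53.4 and 71.4 CPM in Con_M 1 to 3 and 59.4, 110 and 102 in PGR_M 1 to 3, so PGR_M 1 resembled Con_M 2. The median was 0.53 without Con_M 1, 0.49 without PGR_M 1, 0.08 without PGR_M 2 and 0.00 without Con_M 2. Fibroblast markers summed to 99.9 to 181 CPM in Con_M and 114 to 226 in PGR_M, 15 of 20 above 0 (median 0.13, 0.22 without Con_M 3, 0.355 without Con_M 1, 0.41 without PGR_M 1, -0.07 without Con_M 2 and -0.20 without PGR_M 2). PGR_M 2 held the highest PGR_M value in all 20. Smooth muscle and pericyte markers were above 0 in 9 of 13 (median 0.09, also without Con_M 3, 0.15 without Con_M 1, 0.16 without PGR_M 1, 0.05 without PGR_M 3, 0.01 without PGR_M 2 and -0.04 without Con_M 2). Of 18 adipocyte, epicardial and neural markers 6 were tested (median 0.04, 0.08 without Con_M 3, 0.19 without Con_M 1, 0.14 without PGR_M 1, 0.01 without PGR_M 3 and 0.00 without Con_M 2). Of 9 erythroid markers 5 were tested (median -0.18, also without Con_M 3, 0.07 without Con_M 1, -0.08 without PGR_M 1 and 0.08 without PGR_M 2). The part of these cells in the results above was not tested.

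In females the same vector contrast was read for the 24 genes chosen in males. All 12 genes higher in males were above 0 in females, where 50.7% of all genes were, and all 12 lower genes were below 0, where 49.3% were. At an unadjusted p under 0.05 in the same direction stood 7 of the 12 (5.8% of all genes) and 8 of the 12 (5.15%), and the female groups were separate in 4 (4.17%) and 3 (4.07%). The fit estimates the spread of a gene over all 13 libraries. A gene chosen for a small p in males can thus bring a low spread into its female p, so these p counts are not independent of the choice. The shares also cover genes of all levels, while the 24 had a mean log2 CPM of at least 1. The medians were 0.77 in males and 0.41 in females for the higher genes, and -0.48 and -0.23 for the lower ones. Pmepa1 was at -0.47 (SE 0.07) in females, Micall1 at -0.53, Tnnt1 at -0.72 and Plscr2 at 0.51, each close to its male value. Gng2 was at 0.13 (SE 0.22) and Uba7 at 0.16 (SE 0.16).

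Whether the vector effect differed between the sexes was tested as an interaction. EdgeR called 0 of 16125 genes (0%), and 525 (3.26%) had an unadjusted p below 0.05. Of the 24 genes 6 were at that level, 4 of the higher (Gng2, H2-D1, Uba7 and Atg14) and 2 of the lower (Higd1a and Pgk1), each with the larger difference in males. The genes were chosen for their p in males, which is part of this difference, so the count and its direction are a description that the choice favours. For Gng2 the female minus male difference in log2 fold change was -1.13 (unadjusted p = 0.0033, edgeR adjusted p = 1.00). Pdhx and Mpc2 were at 0.10 and 0.07 in females, differences of 0.53 and 0.38 from males (unadjusted p = 0.0078 and 0.0103 by edgeR). Mean levels of Gng2 in Con_M, PGR_M, Con_F and PGR_F were 1.31, 3.23, 2.78 and 3.05 CPM. In the same order Pdhx was at 66.5, 49.4, 49.6 and 53.1 CPM, and Mpc2 at 57.5, 46.4, 47.5 and 49.7. In each of these genes Con_F stood nearer to PGR_M than to Con_M. Among the lists, the GTPases had a female median of 1.22 beside 1.34 in males, class I genes 0.53 beside 1.16, sensors and effectors 0.15 beside 0.41, and endothelial markers -0.20 beside 0.25. These list differences were not tested, and the female medians were not read with a library left out. The GTPase Irgm2 was at 19.1, 8.71 and 5.14 CPM in PGR_F 1, 2 and 4, against 3.44 to 5.82 in Con_F. Gbp2 was at 2.37, 1.43 and 0.664 against 0.329 to 0.740. In both, PGR_F 1 was the highest and PGR_F 4 lay within the range of Con_F.

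**Figure D5:**
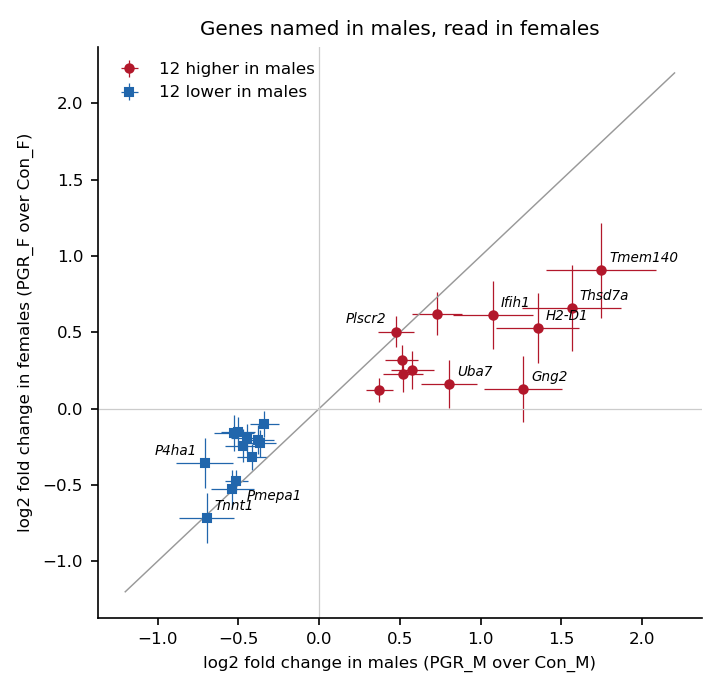
Log2 fold change of the 24 genes chosen in males, in males (horizontal axis) and in females (vertical axis), with the SE as bars and the line of equality. All 12 higher genes lie above 0 and all 12 lower genes below 0 on the vertical axis, with Gng2 (1.26 in males and 0.13 in females) far below the line.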

How the data were processed

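Nuclear RNA of sorted ventricular cardiomyocyte nuclei was sequenced. The values used are raw counts that the authors deposited for each gene, in the broader of their 2 tables. Per the submitters' processing notes, the tools were STAR (2.5.3a) and featureCounts (1.5.0); GRCm38 and mm10 are the builds listed, and no role is stated. The sources used here do not give the strand setting. In the deposited table a gene's length equals its whole interval, and the 6573 genes nested in a longer gene of their own strand had 0 counts in all male libraries. Counts were tested with edgeR 4.0.16 (R 4.3.3), with a filter on low counts, TMM scaling and a quasi-likelihood fit over the 4 groups of 13 libraries, and p-values were adjusted by Benjamini-Hochberg over all genes tested. A gene was called at an adjusted p under 0.05. The scripts were checked on simulated counts with known changes in PGR_M. Of 100 genes changed 2-fold, edgeR recovered 73% and DESeq2 74%. False calls in PGR_M against Con_M were 8 with edgeR, 10 with limma-voom and 24 with DESeq2. The comparison, members and lists were chosen with earlier results of these data known. Named genes were the 12 higher and 12 lower with the smallest p at a mean log2 CPM of at least 1, leaving out predicted, small structural, ribosomal-RNA-like and mitochondrial genes, and up to 5 members of each list by p. Other list members named to show a pathway's receptors, adaptors, chaperones or defining genes, and the genes high in Con_M 3, fall outside that rule and were chosen after their values were seen. Alternatives included DESeq2 1.42.0, limma 3.58.1 (voom), upper-quartile scaling, other filters, the male libraries alone and each male library left out. No female library was left out.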

Additional observations from a re-analysis of the deposited data

Results flagged for a closer look

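For the vector effect in the 2 sexes, Ccnd1 was singled out by separate groups of opposite order and Gm15283 by an adjusted p of DESeq2. EdgeR called neither. Other named genes also had opposite signs, such as Cish (0.50 in males and -0.49 in females, unadjusted p = 0.0116 by edgeR for the difference). Over all genes, 7.2% had all PGR_M libraries above all Con_M libraries, and 4.07% had all PGR_F libraries below all Con_F libraries. How many genes had both was not counted. For Ccnd1, cyclin D1, all 3 PGR_M libraries lay above all Con_M libraries (2.31, 2.43 and 2.30 CPM against 1.79, 1.48 and 1.99), and all 3 PGR_F libraries lay below all Con_F libraries (1.56, 1.69 and 1.55 CPM against 1.75, 1.89, 1.72 and 2.30). The female minus male difference in log2 fold change was -0.67 (unadjusted p = 0.0088, edgeR adjusted p = 1.00), so it did not pass over all genes. Gm15283, a predicted gene, was at 16.9, 16.3 and 16.8 CPM in Con_M and 9.93, 10.5 and 12.4 in PGR_M, with a log2 fold change of -0.61 in males and 0.38 in females. DESeq2 gave a difference of 0.98 (SE 0.19, adjusted p = 0.0136) and called no other gene. EdgeR gave 0.99 for it (adjusted p = 0.737) and called 0 genes, where 525 had an unadjusted p below 0.05. On simulated counts DESeq2 made 24 false calls in the male contrast where edgeR made 8, and the interaction was not checked that way.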

How the results depend on the processing

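Over 18 settings, the 12 higher and 12 lower genes described first all kept their direction and an unadjusted p under 0.05. They were chosen for the smallest p in the main fit, and the settings share most of its libraries, so this largely follows from the choice. The count of called genes, 0 with edgeR, was 27 with DESeq2, 12 with no count filter, 1 with protein-coding genes only (Pmepa1) and 1 with the 6 male libraries alone (B2m). Leaving out each male library in turn gave 0 to 3, the 3 without PGR_M 2. The interaction count was 1 with DESeq2. The replicate numbers did not pair the libraries: deviations of same-numbered libraries correlated at -0.0549, -0.343 and -0.0766 over 11096 genes, and no library correlated best with its own number. With a replicate block the count was 0 over 13 libraries, with 1185 at an unadjusted p under 0.05, and 2 in the male libraries alone (Gm4841 and BC023105). The cause of these differences was not tested. Low levels limit precision: the median SE was 0.37 below a mean log2 CPM of 0.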
